A study of Mus musculus with 14 samples.

Results

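The growth factors that act on blood vessels and are carried by blood cells were followed here as 8 genes: Angpt1, Pdgfa, Pdgfb, Vegfa, Vegfb, Vegfc, Tgfb1 and Egf. They were found through the transcript identifiers of the array probes and are 8 of the 20022 genes with a symbol on the array, covered by 11 of its 55681 non-control probes. RNA was labelled with Cy3 and hybridised to 14 one-colour Agilent mouse arrays, with 1 mouse on each as labelled. All mice were conditioned with cocaine at 5 mg/kg, a dose under the threshold, went through extinction and withdrawal, and were bled 24 hours later. The 8 SS mice had met a hostile social environment in the third postnatal week and the 6 SI mice had been socially isolated as juveniles. Unstressed mice and mice without cocaine were not analysed here, so the only contrast is SS against SI, and strain and age are not given in the sources used here. Blood was taken from the sub-mandibular vein into EDTA and the red cells were lysed. The cells that remained are labelled PBMC, but no gradient or sort is named.

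Slide 1 carried 4 SI and 4 SS mice labelled male and slide 2 carried 2 SI and 4 SS mice labelled female. Slide and sex label are therefore the same term, and SI and SS lie in different array columns, so stress group and array column cannot be told apart. The sex labels disagreed with a Y-linked gene: Eif2s3y was well above background on 6 of 6 arrays labelled female and on 0 of 8 labelled male, and "labelled" is kept below for that reason. The SS labelled male mice 1 and 01b have similar labels and were counted as 2 mice. Angpt1, Pdgfa and Tgfb1 kept the calls given below for all mice without either of them. The 75th percentile of log2 signal ran from 8.49 to 10.4 over the arrays, with SI labelled male mouse 4 the dimmest on slide 1 and SI labelled female mouse 28 the dimmest on slide 2. Levels below are log2 processed signals scaled so that 0 is the 75th percentile of the probes detected on every array. Levels of different probes are not comparable with each other. Between 34.8% and 47.7% of the spots of an array were well above background, the scanner software's own flag for detection.

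Platelets store growth factors made by their precursor, the megakaryocyte, in granules and release them where a vessel is injured. Angiopoietin 1, the product of Angpt1, binds the receptor Tie2 (Tek) on endothelial cells and steadies vessels. VEGF-A drives sprouting through its receptor Kdr and also binds Flt1. PDGF chains A and B pair into dimers that act on PDGF receptors of mesenchymal cells, and TGF-beta 1 is secreted in a latent form that has to be activated. VEGF-C acts mainly on lymphatic vessels through Flt4, VEGF-B binds Flt1, and EGF binds the EGF receptor.

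The RefSeq table of sequences before gene and transcript starts (GRCm38.p6, 250 bases) held 6 of the 8 genes: Pdgfa, Vegfa, Vegfb, Vegfc, Tgfb1 and Egf. The windows of Pdgfa and Tgfb1, which were both higher in SS mice below, are shown with that of Vegfb, whose difference was near 0. Capitals mark GGGCGG, the core of the GC box, on either strand (CCGCCC where it lies on the other strand). The Pdgfa window is the one before a transcript start at chr5:138994945-138995194 on the minus strand, the Tgfb1 window is chr7:25686752-25687001 on the plus strand, and the Vegfb window is chr19:6987652-6987901 on the minus strand.
Pdgfa: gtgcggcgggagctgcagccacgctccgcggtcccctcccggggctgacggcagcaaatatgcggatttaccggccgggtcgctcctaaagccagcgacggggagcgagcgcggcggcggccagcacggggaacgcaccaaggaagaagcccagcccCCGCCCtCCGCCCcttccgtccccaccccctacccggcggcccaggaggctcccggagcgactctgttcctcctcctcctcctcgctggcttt
Tgfb1: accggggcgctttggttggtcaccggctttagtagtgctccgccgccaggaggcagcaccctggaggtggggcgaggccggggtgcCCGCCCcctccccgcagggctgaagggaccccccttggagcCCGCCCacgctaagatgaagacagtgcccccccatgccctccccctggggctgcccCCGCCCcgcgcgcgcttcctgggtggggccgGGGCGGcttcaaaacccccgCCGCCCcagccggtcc
Vegfb: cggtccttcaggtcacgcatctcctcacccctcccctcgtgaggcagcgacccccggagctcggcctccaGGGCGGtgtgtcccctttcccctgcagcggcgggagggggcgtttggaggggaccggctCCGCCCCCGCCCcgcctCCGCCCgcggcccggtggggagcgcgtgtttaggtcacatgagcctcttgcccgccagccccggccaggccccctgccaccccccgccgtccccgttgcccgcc
Pdgfa has 2 windows in the table, neither at the start of the gene; the one shown held 2 matches to GGGCGG and the other, chr5:138994282-138994531, held 1. The Tgfb1 window held 5 and that of Vegfb 4. Of 32851 windows of the same length in the table, 32.7% held at least 1 match. None of these 3 windows held TGATAA or AGATAA, letters that GATA factors bind (7.94% and 9.99% of all windows), CCGGAA, a core of ETS factor sites (12% of all windows), TATAAA (12.4%) or ACGTG, the core of the hypoxia response element (16.6%), on either strand. The matches describe these letters in these windows only.

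Detection divided the 8 genes before any comparison. Angpt1, Pdgfa, Tgfb1, Vegfc and Pdgfb each had a probe well above background on all 14 arrays, and Vegfb on 13 of 14, missing only SI labelled female mouse 27. Vegfa was well above background on 4 arrays with its brighter probe, 3 SI and 1 SS labelled male mice, and on none with its other probe. Egf was not well above background on any array. A second Pdgfb probe was also not above background on any of the 14 arrays. The test required a probe to be well above background on at least 6 arrays, which 24013 probes and 6 of the 8 genes met. A filter of this kind passes a gene that is detected in 1 group alone, but 5 of the 6 genes here were detected on all arrays.

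**Figure D1:**
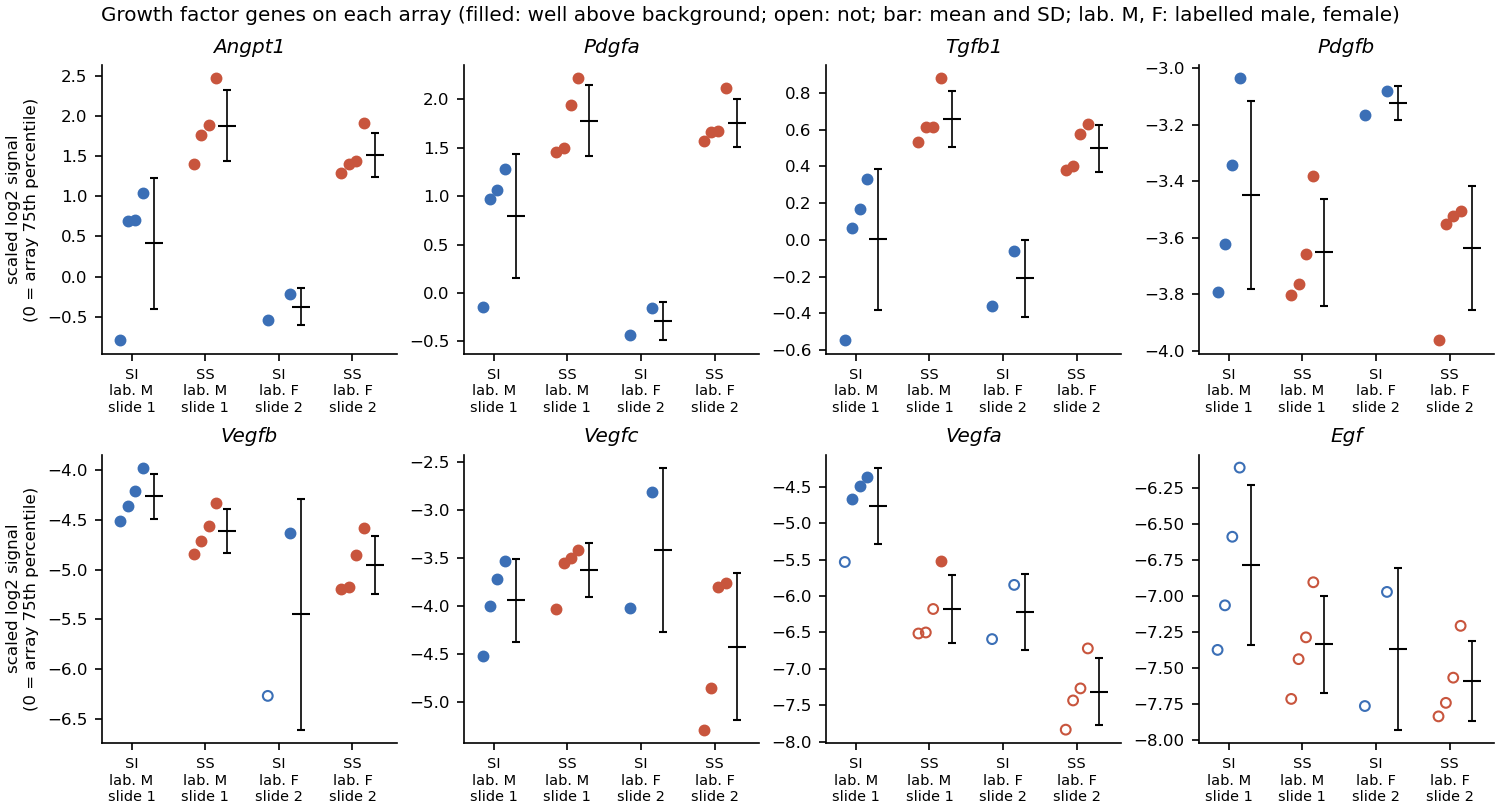
Scaled log2 signal (y axis, 0 is the array's 75th percentile of detected probes; the scale differs between panels) of the 8 genes on each array, by stress group and slide (x axis), with the mean and SD as bars. Filled points are well above background and open points are not. For Angpt1, Pdgfa and Tgfb1 all SS points lie above all SI points on both slides; all Egf points are open.

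Angpt1, Pdgfa and Tgfb1 were higher in SS than in SI mice when both slides were fitted together, by 1.63, 1.41 and 0.68 on the log2 scale (3.1-fold, 2.66-fold and 1.60-fold; 8 SS and 6 SI mice, limma with slide as a term). These were 3 of the 6 tested genes, against 7.97% of all tested probes that passed in either direction and 7.4% that passed with SS higher. Pdgfb, Vegfb and Vegfc did not pass, with differences of -0.33, -0.01 and -0.21. The median over the 6 tested genes was 0.33, beside -0.04 over all tested probes. In RNA of mixed blood cells, fewer cells of a type and less RNA per cell cannot be told apart.

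Angpt1, the Tie2 ligand, was measured at 1.04, 0.69, -0.80 and 0.71 in SI labelled male mice 4, 5, 6 and 7. The SS labelled male mice 1, 2, 3 and 01b stood at 2.47, 1.89, 1.40 and 1.76. All 4 SS mice of slide 1 were above all 4 SI mice, and mouse 6 was far below its group. On slide 2 the SI mice 27 and 28 stood at -0.22 and -0.54, and the SS mice 20, 21, 22 and 23 at 1.44, 1.40, 1.29 and 1.91. The groups did not overlap on this slide either. The order of the group means was SS labelled male (1.88 ± 0.44, SD, n = 4), SS labelled female (1.51 ± 0.27, n = 4), SI labelled male (0.41 ± 0.82, n = 4) and SI labelled female (-0.38 ± 0.23, n = 2). The ranges of the SS groups overlapped each other, as did those of the SI groups. The difference between SS and SI was 1.63 ± 0.28 (SE; 95% interval 1.04 to 2.23; limma adjusted p = 0.00475).

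Pdgfa encodes the A chain of PDGF and had 2 tested probes. Its brighter probe stood at 1.28, 1.06, -0.15 and 0.97 in SI labelled male mice 4, 5, 6 and 7 and at 2.22, 1.94, 1.5 and 1.46 in SS labelled male mice 1, 2, 3 and 01b. Mouse 6 was again the lowest of slide 1, and every SS mouse was above every SI mouse. On slide 2 the values were -0.15 and -0.43 in SI mice 27 and 28, and 1.57, 1.66, 1.68 and 2.12 in SS mice 20, 21, 22 and 23. No SI value of slide 2 reached any SS value. The means were 1.78 ± 0.37 (SD, n = 4) in SS labelled male, 1.76 ± 0.24 (n = 4) in SS labelled female, 0.79 ± 0.64 (n = 4) in SI labelled male and -0.29 ± 0.20 (n = 2) in SI labelled female mice. Only the pair of SS groups overlapped in range among neighbours in this order. The difference was 1.41 ± 0.27 (SE; 95% interval 0.84 to 1.98; limma adjusted p = 0.00507). The second Pdgfa probe differed by 1.35 ± 0.24 (limma adjusted p = 0.00475), close to the first.

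Tgfb1, the gene of TGF-beta 1, also had its lowest value of slide 1 in SI mouse 6. It stood at 0.33, 0.06, -0.55 and 0.17 in SI labelled male mice 4, 5, 6 and 7 and at 0.88, 0.61, 0.53 and 0.61 in SS labelled male mice 1, 2, 3 and 01b. Slide 2 gave -0.06 and -0.36 in SI mice 27 and 28 and 0.38, 0.40, 0.58 and 0.63 in SS mice 20, 21, 22 and 23. Every SS mouse was above every SI mouse of its slide. The group means were 0.66 ± 0.15 (SD, n = 4) in SS labelled male, 0.50 ± 0.13 (n = 4) in SS labelled female, 0.00 ± 0.38 (n = 4) in SI labelled male and -0.21 ± 0.21 (n = 2) in SI labelled female mice. In this order the SS groups overlapped each other in range, the SI groups overlapped each other, and SS labelled female did not overlap SI labelled male. The difference was 0.68 ± 0.16 (SE; 95% interval 0.34 to 1.01; limma adjusted p = 0.0140). This call was lost without SI labelled female mouse 28 (0.63, limma adjusted p = 0.0516), when the arrays were scaled by the 75th percentile of all probes (0.63, limma adjusted p = 0.0995) and with no filter on dim probes (limma adjusted p = 0.105).

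Within slide 1 none of the 6 tested genes passed at an adjusted p under 0.05, and neither did any other probe (0% of 24013). Angpt1 differed there by 1.47 ± 0.36 (SE, limma adjusted p = 0.0851), Pdgfa by 0.99 ± 0.30 (0.0920) and Tgfb1 by 0.66 ± 0.21 (0.0976). These 3 genes had an unadjusted limma p under 0.05, as had 23.7% of all tested probes. The 3 genes were also those in which every SS array of the slide was above every SI array, which held for 8.4% of probes. No tested gene had every SS array below every SI array, which held for 1.17% of probes. Without SI labelled male mouse 4 the slide 1 differences were 1.68 for Angpt1 (limma adjusted p = 0.0144), 1.15 for Pdgfa (0.0181) and 0.76 for Tgfb1 (0.0175). All 3 then passed, while the number of probes that passed went from 0 to 9412. Without SI labelled male mouse 6, the lowest of the slide, the differences fell to 1.06 for Angpt1 (limma adjusted p = 0.238), 0.67 for Pdgfa and 0.47 for Tgfb1, and none passed. Each gene passed on slide 1 in 1 of the 14 fits that left out 1 array.

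Within slide 2, which held 2 SI mice, Angpt1 and Pdgfa passed with SS higher: 2 of 6 genes, against 4% of probes in either direction and 3.18% with SS higher. Angpt1 differed by 1.89 ± 0.44 (SE, limma adjusted p = 0.0363) and Pdgfa by 2.05 ± 0.37 (0.0207). Tgfb1 differed by 0.71 ± 0.26 (0.161) and did not pass. In these 3 genes every SS array was above every SI array, as for 16.5% of probes on this slide. Pdgfb had every SS array below every SI array, as for 18.2% of probes. Leaving out 1 array at a time, Angpt1 kept its call on slide 2 in 5 of 14 fits (limma adjusted p up to 0.189) and Pdgfa in 9 of 14 (up to 0.107).

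The difference of SS minus SI between the slides did not pass for any of the 6 genes, and 0.0458% of probes passed. It was 0.42 for Angpt1 (limma adjusted p = 0.731), 1.06 for Pdgfa (0.385) and 0.05 for Tgfb1 (0.945), each as slide 2 minus slide 1. Vegfc gave -1.33 (0.390). Pdgfa and Vegfc had an unadjusted limma p under 0.05, as had 12.6% of probes.

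**Figure D2:**
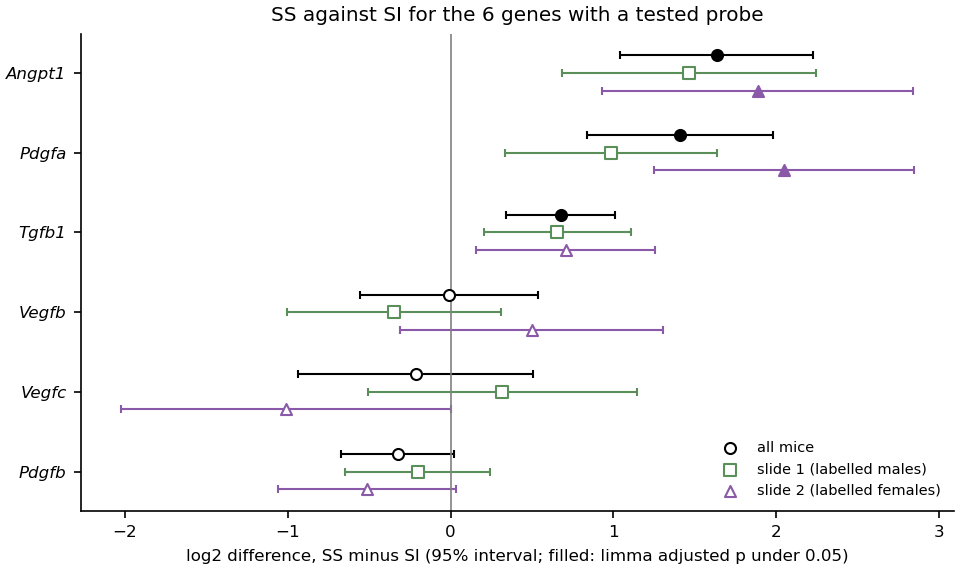
Log2 difference of SS minus SI (x axis, with 95% intervals) for the 6 genes with a tested probe (y axis), in all mice, on slide 1 and on slide 2. Filled symbols have a limma adjusted p under 0.05: Angpt1, Pdgfa and Tgfb1 in all mice, and Angpt1 and Pdgfa on slide 2.

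Pdgfb, the gene of the PDGF B chain, did not follow Pdgfa. It stood at -3.79, -3.34, -3.62 and -3.04 in SI labelled male mice 4, 5, 6 and 7 and at -3.76, -3.66, -3.80 and -3.38 in SS labelled male mice 1, 2, 3 and 01b. These ranges overlapped. Its slide 2 levels were -3.08 and -3.17 in SI mice 27 and 28 and -3.51, -3.52, -3.55 and -3.96 in SS mice 20, 21, 22 and 23, all 4 below both SI mice. The order of means was SI labelled female (-3.12 ± 0.06, SD, n = 2), SI labelled male (-3.45 ± 0.33, n = 4), SS labelled female (-3.64 ± 0.22, n = 4) and SS labelled male (-3.65 ± 0.19, n = 4), with each neighbour overlapping the next in range. The difference was -0.33 ± 0.16 in all mice (SE; 95% interval -0.67 to 0.02; limma adjusted p = 0.274), -0.20 on slide 1 and -0.51 on slide 2.

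The log2 ratio of the brighter Pdgfa probe to the Pdgfb probe within each array was compared between groups, a comparison added after the values of both genes had been seen. A single array's scale drops out of this ratio. It averaged 4.24 ± 0.67 (SD, n = 4) in SI labelled male, 5.43 ± 0.48 (n = 4) in SS labelled male, 2.83 ± 0.14 (n = 2) in SI labelled female and 5.39 ± 0.46 (n = 4) in SS labelled female mice. On slide 1 the ranges overlapped, from 3.48 to 5.08 in SI and from 4.84 to 5.98 in SS mice. The difference was 1.74 (two-sided exact permutation within slides, unadjusted p = 0.0019 over 1050 regroupings). It ranged from 1.55 to 1.94 with 1 array left out. This difference joins the Pdgfa difference of 1.41 and the Pdgfb difference of -0.33, both known when the ratio was chosen. Its p value is therefore no separate support for either gene. The level of this ratio mixes 2 probes of unknown relative response, so that only its differences between arrays can be read.

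The VEGF family showed no passing difference among its tested genes. Vegfb, the Flt1 ligand, ranged from -4.51 to -3.97 in SI and from -4.85 to -4.33 in SS labelled male mice, and the ranges overlapped. On slide 2 it was -6.27 and -4.63 in SI mice 27 and 28, the first not well above background, and ranged from -5.20 to -4.58 in SS mice. The means ran from SI labelled male (-4.26 ± 0.23, SD, n = 4) through SS labelled male (-4.61 ± 0.22, n = 4) and SS labelled female (-4.95 ± 0.30, n = 4) to SI labelled female (-5.45 ± 1.16, n = 2), each overlapping the next. The difference was -0.01 ± 0.25 in all mice (95% interval -0.56 to 0.54; limma adjusted p = 0.985), -0.35 on slide 1 and 0.50 on slide 2. Without mouse 27 the slide 2 difference turned to -0.32 and that of all mice was -0.34, so the sign on slide 2 rested on that array. The sign in all mice also turned in other fits that left out 1 array, with values up to 0.13.

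Vegfc, the lymphatic factor, stood at -3.53, -3.72, -4.53 and -4.0 in SI labelled male mice 4, 5, 6 and 7 and at -3.50, -4.04, -3.41 and -3.55 in SS labelled male mice 1, 2, 3 and 01b. The slide 2 arrays gave -2.81 and -4.03 in SI mice 27 and 28 and -3.80, -3.76, -5.29 and -4.86 in SS mice 20, 21, 22 and 23. SI and SS overlapped on both slides. The means were -3.42 ± 0.86 (SD, n = 2) in SI labelled female, -3.63 ± 0.28 (n = 4) in SS labelled male, -3.94 ± 0.43 (n = 4) in SI labelled male and -4.43 ± 0.77 (n = 4) in SS labelled female mice, and all neighbours in this order overlapped. The difference was -0.21 ± 0.34 in all mice (95% interval -0.94 to 0.51; limma adjusted p = 0.743), 0.32 on slide 1 and -1.01 ± 0.47 on slide 2 (limma adjusted p = 0.316). Without SI mouse 27 the slide 2 value was -0.40 and that of all mice 0.11.

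Vegfa, the main sprouting factor, was too dim for the test. Its brighter probe stood at -5.53, -4.49, -4.66 and -4.37 in SI labelled male mice 4, 5, 6 and 7, of which mice 5, 6 and 7 were well above background. The SS labelled male mice 1, 2, 3 and 01b stood at -6.18, -6.50, -5.52 and -6.51, with mouse 3 alone above background. On slide 2 no array was above background, and the signals were -6.59 and -5.85 in SI mice 27 and 28 and from -7.83 to -6.72 in SS mice. So the probe was detected in 3 of 6 SI and 1 of 8 SS mice. In the fit with no filter on dim probes, its difference was -1.29 ± 0.27 in all mice (limma adjusted p = 0.0231 over 55681 probes, of which 2.02% passed). That value rests mostly on signals not above background and is given without a fold. Within slide 1 it was -1.41 ± 0.36 (limma adjusted p = 0.155).

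Egf, the ligand of the EGF receptor, was below detection in every mouse. Its unfiltered difference of -0.42 (limma adjusted p = 0.703) therefore compares signals not above background.

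Platelet markers differed between the same groups. Of 17 platelet and megakaryocyte markers, which hold none of the 8 genes, all were tested. In all mice 16 were higher in SS at a limma adjusted p under 0.05, beside 7.4% of all tested probes. Selp did not pass (0.74, limma adjusted p = 0.118). The median of the 17 markers was 1.57, beside -0.04 over all tested probes. Their mean level per array, centred over the arrays, ran from -1.79 to 0.26 in SI and from 0.33 to 1.17 in SS labelled male mice, and from -1.43 to -1.09 in SI and from 0.32 to 0.75 in SS labelled female mice. Pf4, platelet factor 4, was higher by 1.43 and Itga2b, the platelet integrin chain, by 1.65, and both were above background on all arrays. SI labelled male mouse 6, the lowest of slide 1 for Angpt1, Pdgfa and Tgfb1, was also the lowest of slide 1 for the platelet mean.

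With slide means taken off, the platelet mean and the gene levels over the 14 arrays correlated at r = 0.99 for Angpt1, 0.97 for Pdgfa and 0.99 for Tgfb1. The values were -0.57 for Pdgfb, -0.05 for Vegfb and -0.08 for Vegfc, and without SI labelled female mouse 27 they were -0.50, -0.57 and 0.18. These correlations share the stress groups and the scaling of each array and are given as a description. Among themselves Angpt1 and Pdgfa correlated at 0.97, Angpt1 and Tgfb1 at 0.98, and Pdgfa and Tgfb1 at 0.94. With the platelet mean added to the same model, a term that differs between SS and SI too, the differences were 0.15 for Angpt1 (limma adjusted p = 0.888), 0.12 for Pdgfa (0.929) and 0.03 for Tgfb1 (0.977), and none of the 24013 probes passed.

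**Figure D3:**
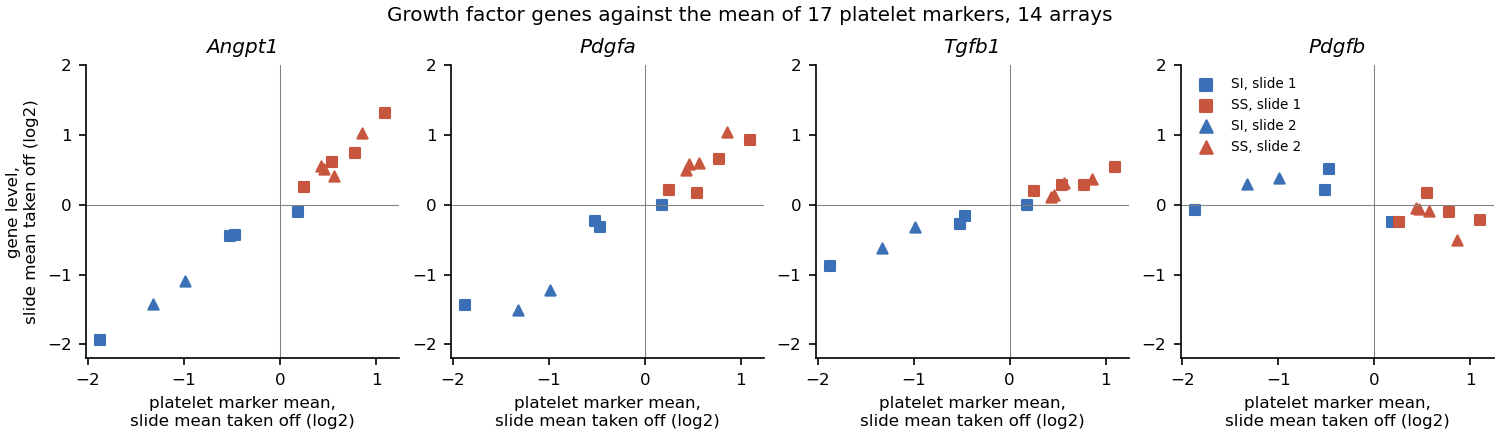
Level of 4 genes (y axis, log2) against the mean of 17 platelet markers (x axis, log2), both with the slide mean taken off, for 14 arrays. Blue is SI and red is SS; squares are slide 1 and triangles slide 2. Angpt1, Pdgfa and Tgfb1 rise with the platelet mean (r = 0.99, 0.97 and 0.99) and Pdgfb does not (r = -0.57).

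White cell markers were set beside the genes that did not pass. Of the 10 tested monocyte markers, 1 was higher in SS mice (F13a1, 1.30, limma adjusted p = 0.0066). Another 1 was lower (Nr4a1, -0.88, limma adjusted p = 0.0215), beside 7.97% of all tested probes that passed in either direction. F13a1 was the only 1 of the 10 with a higher estimate. The other 9 had lower estimates in SS mice, and the list median was -0.41, beside -0.04 over all tested probes. Pdgfb correlated at 0.70 with the mean of the monocyte markers over the 14 arrays, Vegfb at -0.72 and Vegfc at 0.59. Pdgfb also correlated at 0.58 with the neutrophil, 0.51 with the NK cell, 0.02 with the T cell and -0.35 with the B cell markers. With the B cell markers the values were 0.71 for Vegfb and -0.72 for Vegfc. The values of Vegfb and Vegfc rested largely on SI labelled female mouse 27, the array on which Vegfb was not above background. Without it the monocyte values were -0.17 for Vegfb and 0.13 for Vegfc, against 0.69 for Pdgfb, and the B cell values were 0.31 for Vegfb and -0.49 for Vegfc. The weakest monocyte value of Pdgfb with 1 array left out was 0.56, without SS labelled female mouse 23. On slide 2 the 12 tested neutrophil markers had a median difference of -2.19, and 7 were lower in SS mice, beside 0.82% of probes, while on slide 1 their median was 0.29. The part of these cell types in the values of Pdgfb, Vegfb and Vegfc was not tested.

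The genes most like each member over the 14 arrays, with slide means taken off, were sought among 11480 genes. The r values below are the highest of that many, so part of their height comes from the choice. They are given as a description and were not tested. For Angpt1 they were Bicd2 (r = 0.997), Fam131a and Pcp4l1 (both 0.996), which were higher in SS mice by 1.43, 1.40 and 1.34. For Pdgfa they were Ipo11 (0.994), Cttn (0.992) and Rgs18 (0.991), higher by 1.37, 1.45 and 1.58. Those of Tgfb1 were Ctnna1 (0.993), Nav1 (0.992) and Slc2a3 (0.992), higher by 1.17, 0.92 and 1.33. Pdgfb was most like Aph1b (0.907), Lpar6 (0.897) and Nr4a1 (0.869), of which Nr4a1, a nuclear receptor, was lower in SS mice by -0.88 (limma adjusted p = 0.0215) and the others did not pass. Vegfb was most like Foxp3 (0.887), Ahdc1 (0.867) and Nid1 (0.83), with values of 0.783, 0.601 and 0.815 without mouse 27. Vegfc was most like Cd300e (0.902), Ip6k3 (0.876) and Ace (0.842), with values of 0.835, 0.780 and 0.770 without mouse 27. None of these last 6 genes passed. Nr4a1 and Ace are also in the monocyte list, so their likeness is not separate from the monocyte mean given above.

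The receptors of these factors were mostly dim or did not pass. Of 17 receptor genes, 10 were tested in all mice, 1 was higher, near the 7.4% of all tested probes with SS higher, none was lower and their median was -0.31. Tek, the Tie2 receptor of angiopoietin 1, both PDGF receptor genes Pdgfra and Pdgfrb, the VEGF-C receptor Flt4 and Erbb3 were not well above background on any array. The gene that passed was Tie1, the partner of Tie2 (limma adjusted p = 0.00627), and it entered the test through the SS arrays. It was well above background on 6 of 8 SS and 1 of 6 SI arrays, so its fitted difference of 1.70 ± 0.34 (SE) is set against SI signals that were mostly not above background. On slide 2 it was detected on all 4 SS arrays and on neither SI array, which makes it at least 2.19-fold higher there, measured against the lowest signal well above background on each SI array or the probe's own signal, whichever was higher. The VEGF receptors Flt1 (0.37 ± 0.24, limma adjusted p = 0.412) and Kdr (-0.08 ± 0.53, 0.944) did not pass. The TGF-beta receptor genes Tgfbr1 (-0.48 ± 0.19, 0.147) and Tgfbr2 (-0.38 ± 0.24, 0.394) did not pass either. On slide 2 Acvrl1, a TGF-beta family receptor of endothelium, was lower by -1.97 (limma adjusted p = 0.0149; 2 SI mice), while it differed by 0.03 on slide 1 (0.950) and by -0.77 in all mice (0.194), and the difference between the slides did not pass (0.112).

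Endothelial cells were looked for in the same RNA. Of 14 endothelial markers, 6 were tested and 7 were never above background: Cdh5, the cadherin of endothelial junctions, Tek, Robo4, Sox17, Sox18, Erg and Cldn5. Plvap, detected on all 14 arrays, was higher in SS mice (1.15, limma adjusted p = 0.0106), and Tie1 passed through the SS arrays as described above. Counting Tie1, 2 of the 6 were higher, beside 7.4% of all tested probes, and none was lower. As Tie1 met the filter only through the SS arrays, where it was higher, this count cannot be read as a result about the list. The mean of the 6 tested markers ran from -1.07 to 0.66 in SI and from 0.35 to 0.88 in SS labelled male mice, and from -0.57 to -0.51 in SI and from -0.37 to 0.06 in SS labelled female mice. Of these markers Tie1 and Ptprb were well above background on 7 arrays each and Egfl7 on 8, so the mean includes signals not above background. With slide means taken off, this mean correlated over the 14 arrays with Angpt1 at 0.82, Tgfb1 at 0.83 and Pdgfa at 0.74. Without SI labelled male mouse 6 the values were 0.71, 0.69 and 0.62. These correlations too share the stress groups and the scaling of each array and are given as a description. Tek, Tie1, Kdr and Flt1 stand in both the receptor and the endothelial list.

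Few other growth factor ligands could be tested. Of 17 such genes, among them Angpt2, Pdgfc, Pdgfd, Pgf, Hbegf and Hgf, 3 were tested and none passed, and 8 were never above background. The lowest p values were those of Tgfb2 (0.43 ± 0.26, limma adjusted p = 0.388), detected on 8 labelled male arrays and on no labelled female array, and of the insulin-like growth factor Igf1 (-0.62 ± 0.50, 0.500).

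Some genes that store or activate TGF-beta were higher in SS mice. Of 13, 10 were tested, 4 were higher, beside 7.4% of all tested probes, and none was lower, with a median of 0.31. Those that rose were Thbs1, which encodes thrombospondin 1, an activator of latent TGF-beta (1.42 ± 0.27, SE, limma adjusted p = 0.00517), the latent TGF-beta binding proteins Ltbp2 (1.39 ± 0.29, 0.00757) and Ltbp1 (1.38 ± 0.27, 0.00608), and Lrrc32, which holds latent TGF-beta at the cell surface (1.37 ± 0.31, 0.0108). Ltbp3 (0.02), the processing enzyme Furin (-0.57) and Nrros, the anchor of latent TGF-beta on myeloid cells (-0.54), did not pass. Mmp9 (-0.94) did not pass and is also in the neutrophil list. In the cell's own TGF-beta pathway 8 of 10 genes were tested. Smurf2, a ubiquitin ligase that restrains the pathway, was higher (0.99 ± 0.19, 0.00548), 1 of 8 beside 7.4% of probes, none was lower and the median was -0.31. Smad2 (-0.34), Smad3 (-0.81) and Smad4 (-0.04), which carry the signal, did not pass.

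Hypoxia response genes were set beside the VEGF genes because hypoxia raises Vegfa. Of 16, 14 were tested, 3 were higher in SS mice, beside 7.4% of all tested probes, and none was lower, with a median of -0.14. Ndrg1 was higher by 1.16 ± 0.24 (SE, limma adjusted p = 0.00679), Pfkfb3, a regulator of glycolysis, by 0.71 ± 0.15 (0.00892) and Pdk1, a kinase that restrains pyruvate oxidation, by 0.70 ± 0.17 (0.0175). Hif1a (-0.42), Slc2a1 (-0.53) and Ldha (-0.10) did not pass. The platelet mean differed between the same groups, as given above, and its part in the passing genes of these lists was not tested. The covariate fit, in which no probe passed, cannot test it. The platelet mean did not overlap between SS and SI on either slide, so the 2 terms cannot be told apart.

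**Figure D4:**
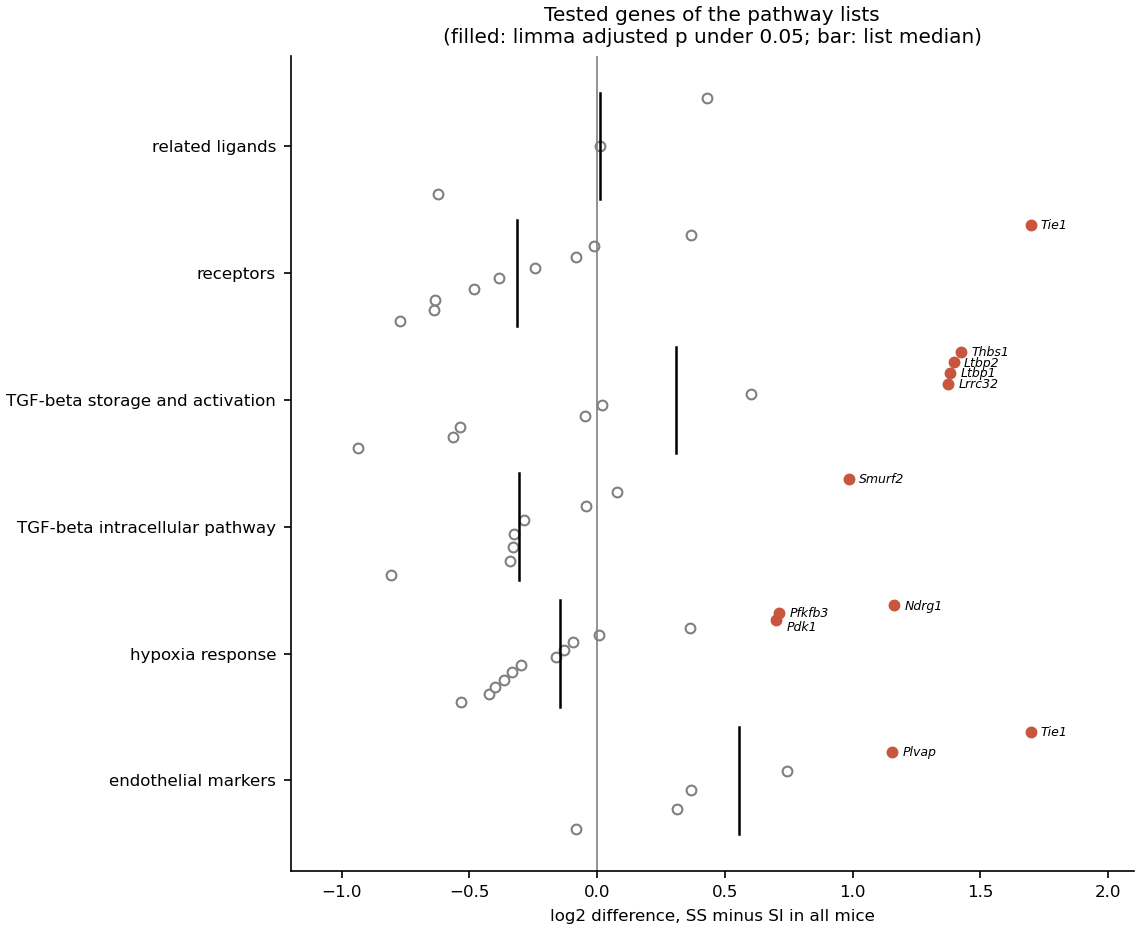
Log2 difference of SS minus SI in all mice (x axis) for the tested genes of 5 pathway lists and of the endothelial markers (y axis). Filled points have a limma adjusted p under 0.05 and black bars are list medians. The named genes are those that passed; the points of a list are spread vertically only so that they can be seen.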

How the data were processed

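RNA of 14 mice was measured on 1 one-colour array each. Per the file headers, the deposited scanner files hold processed, median spot and median background intensity values made by Agilent Feature Extraction 10.7.3.1 with background subtracted and no scaling between arrays; the submitters' processing notes name version 9.1. The authors also deposited a log2 value table, used as an alternative. How it was normalized is not given by the labels or headers. Flags for control spots, outliers and detection are deposited per the file headers.

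Control spots (3671 of 62976) and outlier spots, unless a probe's only spot, were left out. Log2 signals were averaged per probe and each array was set to 0 at its 75th percentile over the 14504 probes well above background on all arrays. Gene symbols came from the supplied RefSeq table (26425 of 31063 RefSeq-type identifiers matched). A gene was represented by its brightest tested probe. The limma package (3.58.1, R 4.3.3) fitted models across all 24013 tested probes: SS against SI with slide as a term, and a fit with 4 groups for each slide and their difference. P values are two-sided and Benjamini-Hochberg adjusted over all tested probes at 0.05. Whether mice shared a litter or cage is not given, and the number of arrays limits the precision. The code was tested on simulated data. The genes and the gene lists were chosen with earlier results of these data known. Named genes are all 8 members, the pathway genes that passed in all mice (the lowest 2 p values where none did), the 3 genes most like each member and a few fixed markers; other genes and the Pdgfa to Pdgfb ratio were chosen after their values were seen. Alternatives covered scaling, background correction, the deposited table, the filter, covariates, array weights and each array left out.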

Additional observations from a re-analysis of the deposited data

Results flagged for a closer look

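In 2 of 23 groups of 4 arrays checked, the array at one end stood far from the others by Dixon's ratio, where chance alone flags about 1 group in 20. SI labelled male mouse 6 had a level of -0.081 for the second Pdgfa probe, and the next lowest mouse of its group stood at 0.95. The same mouse was the lowest of its group for the first Pdgfa probe, for Angpt1 and for Tgfb1, and for the platelet marker mean, -1.79. SS labelled female mouse 23 had a Pdgfb level of -3.96, and the next lowest mouse of its group stood at -3.55. That mouse also had the highest Pdgfa level of its group, 2.12, and the highest platelet marker mean of its group, 0.75.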

How the results depend on the processing

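Angpt1 and Pdgfa kept their direction and their call in all mice under every alternative run except the platelet covariate, including all 14 fits that left out 1 array (1.42 to 1.77 and 1.25 to 1.54). Tgfb1 kept its call in 13 of those 14 (0.57 to 0.74). The deposited table gave smaller differences, 0.99 for Angpt1, 0.83 for Pdgfa and 0.46 for Tgfb1, which still passed; the cause was not tested. The number of the 6 genes that passed in all mice was 2 to 3 with 1 array left out and 0 with the platelet covariate. On slide 1 it was 2 under normexp background correction and 0 to 3 with 1 array left out. On slide 2 it was 1 in the deposited table, 0 with no filter on dim probes and 0 to 2 with 1 array left out. The number of probes that passed in all mice was 1915, and it was 1125 with no filter, 1148 without the slide term, 0 with the platelet covariate, 10649 with array weights (5010 higher and 5639 lower) and 1489 to 3858 with 1 array left out, the highest without SI labelled male mouse 4. On slide 1 it was 2 with the percentile of all probes, 1 with the median, 2 with quantile normalization, 1459 with normexp, 174 in the deposited table and 0 to 9412 with 1 array left out. On slide 2 it was 461 in the deposited table, 52 with no filter and 45 to 1912 with 1 array left out. For the difference between slides it was 17 with quantile normalization, 36 in the deposited table and 1 to 669 with 1 array left out. No difference of Angpt1, Pdgfa or Tgfb1 that passed changed its sign, and the other named genes were not refitted one by one. The causes of these changes were not tested, except that fitting without the filter adds dim probes to the adjustment. No paired analysis was possible because the mouse numbers are not shared between SS and SI. Signal over background limits Vegfa and Egf, and slide 2 has 2 SI mice.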
